A study of Mus musculus with 12 samples.

Results

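Collagens are the main structural proteins of the extracellular matrix, and each molecule is a triple helix of 3 chains encoded by separate genes. The collagen chain genes examined here were all array probes whose accession mapped to a mouse gene symbol of the form Col, number, a, number. There were 64 such probes for 44 genes, out of 55681 probes and 21154 named genes on the array. By class, 11 genes encode fibrillar chains, 6 basement membrane (type IV) chains, 9 fibril-associated (FACIT) chains, 6 beaded filament (type VI family) chains, 3 short-chain network chains, 4 transmembrane chains, 2 multiplexins, 1 the anchoring fibril chain and 2 other chains.

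The samples were neural progenitor cells (NPCs) differentiated in vitro from mouse embryonic stem cells, kept in medium with EGF and bFGF, transduced with a retrovirus and selected with puromycin. The 6 groups carried an EGFP transgene (the control for overexpression), an Mkl1 transgene, an Srf transgene, a hairpin against EGFP (shEGFP, the control for knockdown) or one of 2 hairpins against Actb (shActb_1 and shActb_2), with 2 arrays in each group. Srf is a transcription factor, Mkl1 is its actin-regulated coactivator, and Actb encodes beta-actin, the protein that holds Mkl1 in the cytoplasm when it is monomeric. The study asked how this pathway bears on cell identity, and the question here is which collagen chains differed between each treatment and its own control. The study describes the knockdown duplicates as technical, and nothing says that the other duplicates came from separate cultures, so every p-value measures the spread between arrays.

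Fibrillar collagens such as types I, III and V build the banded fibers of connective tissue, and type V chains join type I fibrils while type XI chains join type II fibrils of cartilage. Type IV collagen forms the sheet-like network of basement membranes, including those on which neural progenitors and blood vessels of the brain rest, and type VI collagen forms beaded filaments around cells. Chains are made as procollagen, hydroxylated and folded in the endoplasmic reticulum, trimmed outside the cell and cross-linked by lysyl oxidases.

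Levels are given as the log2 processed signal minus the 75th percentile of its array, so a level of 0 equals that percentile and 1 unit is a doubling. Levels of different probes are not set against each other. A probe was tested in a comparison if it was well above background on both arrays of at least 1 of the compared groups, and it is called changed, or said to have risen or fallen, at an adjusted p under 0.05 and a fold over 2. Adjusted p-values came from limma with Benjamini-Hochberg adjustment over all probes tested in the comparison.

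Across all 12 arrays 59.3% to 72.5% of probes were well above background, no probe was saturated, and duplicate arrays correlated at 0.993 to 0.998 across probes. The EGFP pair was the least alike, with 2.74% of probes over 2-fold apart, against 0.499% to 1.54% in the other pairs. The EGFP, Mkl1 and Srf arrays were on slide 1, the shEGFP and shActb_1 arrays on slide 2 and the shActb_2 arrays on slide 3, so hairpin 2 and its slide cannot be told apart, and the EGFP arrays stood in another row of slide 1 than the Mkl1 and Srf arrays. Both Srf probes were lower on the arrays labelled Srf than with EGFP, by 2.46 and 1.40 on the log2 scale (adjusted p = 2.54e-06 and 2.66e-04). The location of these probes relative to the transgene is not known, so their values do not tell whether the transgene was expressed. The 2 probes for Mkl1 (symbol Mrtfa) differed by 0.20 and 0.17 in the Mkl1 group (adjusted p = 0.120 and 0.312). The Actb probe was lower by 0.53 with shActb_1 and 0.65 with shActb_2 (adjusted p = 0.00128 and 1.97e-04), under the fold of 2, and Acta2, a classical Srf target, rose in each treatment by 3.37 to 6.93.

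Among the markers of the labelled cell type, Nes, Sox2, Slc1a3 and Vim were above background on all 12 arrays, while Olig2 was above on 1. The other markers included S100a4, Twist1, Twist2, Prrx1, Dcn and Pdgfrb, which mark fibroblasts and other mesenchymal cells, on all 12 arrays. In every group 8 or 9 of 10 genes of that list were above background on both arrays. The same held for the list of neural progenitor markers, with 8 or 9 of 10 genes. Of the endothelial markers, Pecam1 and 1 of 2 Kdr probes were above background on all arrays, and Cdh5, Tek, Tie1 and Emcn were above on none. Of the chondrocyte markers, Acan, Sox9 and Comp were above on all 12 arrays, Matn3 and Cnmd on 2 each and Hapln1 on none.

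Of the 64 collagen probes, 31 were well above background on all 12 arrays, 21 on some and 12 on none. At the level of genes, 27 of 44 had a probe above background on all arrays. The number of genes with a probe above background on both arrays of a group ran from 28 in shActb_2 to 32 in EGFP. In the 4 comparisons with a control, 46 probes of 35 genes could be tested at least once. The other 9 genes, Col4a3, Col5a2, Col6a5, Col9a3, Col10a1, Col13a1, Col17a1, Col19a1 and Col28a1, had no tested probe. Col5a2 and Col13a1 were above background on 2 arrays each and Col6a5 and Col9a3 on 1 each. The other 5 are Col4a3, Col10a1 of hypertrophic cartilage, Col17a1 of hemidesmosomes, Col19a1 and Col28a1, each with no array above background, so that their levels are bounded by it.

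RefSeq promoter windows of build GRCm38.p6, from 250 bases before to 50 bases from the start of each transcript on, were found for 35 of the 44 genes (38 windows). Col4a1 and Col4a2 are shown because they moved together in the results below and share a promoter: they are read in opposite directions from starts 21 bases apart, and 78 bases, in capitals, belong to both windows. The window of Col4a1 is chr8:11312777-11313076 on the minus strand and that of Col4a2 is chr8:11312555-11312854 on the plus strand, each printed 5′ to 3′ on its own strand.
Col4a1: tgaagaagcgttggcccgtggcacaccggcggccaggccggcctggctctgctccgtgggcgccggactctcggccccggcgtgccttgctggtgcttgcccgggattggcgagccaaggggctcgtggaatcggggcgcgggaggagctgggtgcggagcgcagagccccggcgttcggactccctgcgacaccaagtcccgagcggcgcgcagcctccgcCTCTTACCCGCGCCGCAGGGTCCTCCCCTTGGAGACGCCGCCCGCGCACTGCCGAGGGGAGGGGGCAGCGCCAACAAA
Col4a2: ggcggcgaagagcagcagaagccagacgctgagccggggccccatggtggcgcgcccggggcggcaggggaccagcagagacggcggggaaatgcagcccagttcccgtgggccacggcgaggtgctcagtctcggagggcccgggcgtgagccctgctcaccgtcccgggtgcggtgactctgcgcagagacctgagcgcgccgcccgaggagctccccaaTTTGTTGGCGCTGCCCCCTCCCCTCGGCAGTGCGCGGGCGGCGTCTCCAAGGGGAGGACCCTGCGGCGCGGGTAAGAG

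The windows of the 3 genes with the largest changes in several comparisons are shown next, with the 50 bases from the start on in capitals. They are Col11a1 at chr3:114030290-114030589 on the plus strand, Col5a3 at chr9:20815018-20815317 on the minus strand and Col6a3 at chr1:90843922-90844221 on the minus strand.
Col11a1: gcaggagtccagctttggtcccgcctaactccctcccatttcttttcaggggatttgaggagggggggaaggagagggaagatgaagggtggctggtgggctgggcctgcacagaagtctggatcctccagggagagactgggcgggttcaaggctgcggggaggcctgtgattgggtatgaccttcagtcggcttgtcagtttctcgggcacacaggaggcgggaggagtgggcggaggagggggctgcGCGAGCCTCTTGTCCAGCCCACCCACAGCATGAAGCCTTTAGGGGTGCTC
Col5a3: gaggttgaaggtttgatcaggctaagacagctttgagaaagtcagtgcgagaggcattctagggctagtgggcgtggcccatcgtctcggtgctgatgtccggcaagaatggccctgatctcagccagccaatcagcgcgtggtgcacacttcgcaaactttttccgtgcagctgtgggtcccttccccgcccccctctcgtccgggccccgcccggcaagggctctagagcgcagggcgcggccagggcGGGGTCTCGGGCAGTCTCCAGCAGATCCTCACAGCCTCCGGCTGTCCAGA
Col6a3: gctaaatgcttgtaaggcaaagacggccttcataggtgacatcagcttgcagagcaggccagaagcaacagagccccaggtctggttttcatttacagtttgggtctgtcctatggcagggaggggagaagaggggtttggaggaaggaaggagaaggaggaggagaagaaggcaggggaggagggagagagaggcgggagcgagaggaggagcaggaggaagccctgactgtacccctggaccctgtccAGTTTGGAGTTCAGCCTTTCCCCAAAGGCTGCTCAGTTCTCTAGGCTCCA

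The CArG box, the element bound by Srf, was searched on both strands in its strict form and was found in 1.63% of all 32851 promoter windows and, among the collagens, in that of Col6a4 alone. The sequence CATTCC, bound by TEAD factors, was in 14.7% of all windows and in 5 of 38 collagen windows (13.2%), those of Col3a1, Col4a6, Col6a2, Col18a1 and Col20a1. The AP-1 sequence TGANTCA was in 7.81% of all windows and in that of Col6a1. The GC box GGGCGG was in 35.7% of all windows and 60.5% of collagen windows, which had a median GC content of 59.8% against 52.7% over all windows. It matched once in the Col4a1 window, at 3 positions in the Col4a2 window, at 2 in that of Col11a1, at 3 in that of Col5a3 and at none in that of Col6a3. CCAAT was in 37.4% of all windows and 34.2% of collagen windows, and matched once in each of the Col4a1, Col4a2, Col11a1 and Col5a3 windows. TATAAA was in 13.6% of all windows and 13.2% of collagen windows, and in none of the 5 printed, and such a sequence can also lie inside a CArG box. A match is a description of the letters and not of binding.

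Against their own controls, 18 of the 35 tested collagen genes changed in at least 1 of the 4 comparisons, 6 of them upward and 12 downward, and none in both directions. Over all 16716 named genes tested, 6.46% rose in at least 1 and fell in none, 7.17% fell in at least 1 and rose in none, and 0.658% did both. The arrays labelled Srf and the Mkl1 arrays were both compared with the same EGFP arrays, and both hairpins with the same shEGFP arrays, so the 2 comparisons of a pair are not independent. Col5a3 and Col6a3 rose in each of the 4 comparisons. Col4a1 and Col4a2 rose with the arrays labelled Srf and with Mkl1. Col11a1 fell with Mkl1 and with each hairpin.

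In the arrays labelled Srf, 6 of 44 tested collagen probes rose and 3 fell, while 3.29% of all probes tested rose and 2.25% fell. The median collagen log2 fold change was -0.27 against -0.036 over all probes, and 6 rose and 3 fell when slide 1 alone was fitted (2.98% and 2.57% of all probes). With Mkl1, 4 of 41 collagen probes rose and 6 fell, where 1.29% and 1.49% of all probes did, and the medians were -0.38 and -0.029. With slide 1 alone 2 rose and 4 fell (0.97% and 1.27% of all probes). With the EGFP and Mkl1 arrays alone none rose and 1 fell, and over all probes the shares were down to 0.218% and 0.134%. With shActb_1, 2 of 38 collagen probes rose and 2 fell, against 0.486% and 1.12% of all probes, and the medians were -0.20 and 0.0073. With shActb_2, 3 of 38 rose and 5 fell, against 1.73% and 4.58% of all probes, and the medians were -0.49 and -0.023. Among probes above background on all arrays compared, 5 of 37 collagen probes rose and 3 fell in the arrays labelled Srf, against 2.5% and 1.81% of all probes so filtered. With Mkl1 4 of 36 rose and 4 fell (0.941% and 1.25% of all), with shActb_1 1 of 37 rose and 2 fell (0.443% and 0.828% of all), and with shActb_2 2 of 32 rose and 3 fell (1.49% and 3.17% of all).

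By the adjusted p alone, without the fold criterion, 10 collagen probes were higher and 11 lower in the arrays labelled Srf (12.9% and 12.5% of all probes), and 7 higher and 12 lower with Mkl1 (12.5% and 8.34% of all). The counts were 6 and 7 with shActb_1 (5.29% and 4.12% of all) and 8 and 16 with shActb_2 (21.7% and 18.6% of all).

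**Figure D1:**
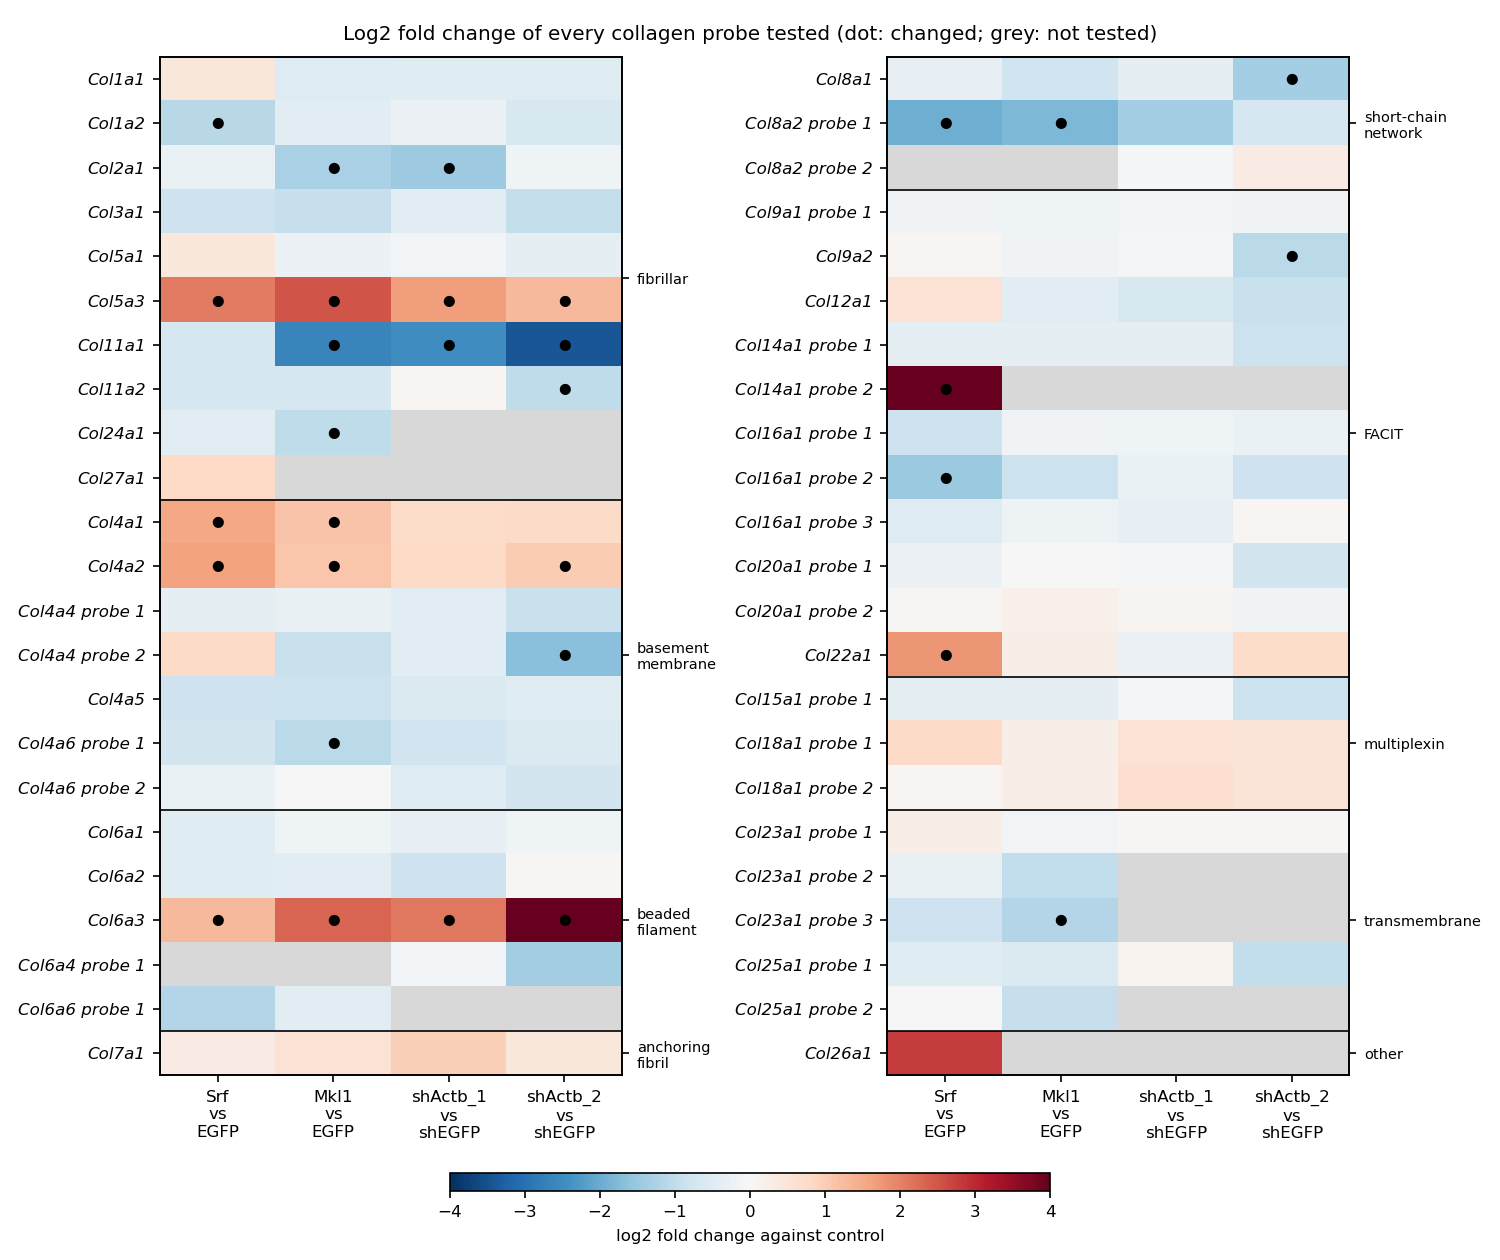
Log2 fold change of each of the 46 tested collagen probes (rows, by class) in the 4 comparisons with a control (columns), with red for higher and blue for lower than control, a dot for a changed probe and grey for a probe not tested in that comparison. Col5a3 and Col6a3 are red with a dot in all 4 columns, and Col11a1 is dark blue in the Mkl1 and both hairpin columns.

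Type I collagen, the most abundant collagen of connective tissue, is built from 2 chains of Col1a1 and 1 of Col1a2. Col1a2 had levels of 6.51 and 6.48 on the EGFP arrays, 5.38 and 5.42 on those labelled Srf and 6.18 and 5.92 with Mkl1. It fell 2.14-fold in the arrays labelled Srf (log2 SE 0.10, n = 2 arrays per group, adjusted p = 2.43e-04), and with Mkl1 the difference was -0.45 ± 0.10 (adjusted p = 0.0168), under 2-fold. On the knockdown side Col1a2 was at 6.36 and 6.22 with shEGFP, 6.10 and 5.99 with shActb_1 and 5.66 and 5.62 with shActb_2, a difference of -0.65 ± 0.10 for shActb_2 (adjusted p = 0.00189).

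Col1a1, the partner chain, did not change in any of the 4 comparisons. Its levels were 3.22 and 3.16 with EGFP, 3.78 and 3.47 in the arrays labelled Srf, 3.02 and 2.31 with Mkl1, 3.07 and 2.83 with shEGFP, 2.60 and 2.32 with shActb_1 and 2.51 and 2.39 with shActb_2. In the arrays labelled Srf the difference was 0.44 ± 0.23 (adjusted p = 0.208), opposite in sign to that of Col1a2, and the groups did not overlap. In the other comparisons it lay between -0.52 and -0.49 with adjusted p of 0.120 to 0.261. The Mkl1 value rested on arrays that stood apart and was -0.88 without Mkl1 replicate 1 (adjusted p = 0.0306) and -0.17 without replicate 2 (adjusted p = 0.646).

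Col3a1, the single chain of type III collagen, which accompanies type I in soft tissues, was lower in each comparison with an adjusted p under 0.05 and a fold under 2. Its levels were 6.05 and 6.12 with EGFP, 5.27 and 5.21 in the arrays labelled Srf, 5.24 and 5.06 with Mkl1, 5.61 on both shEGFP arrays, 5.25 and 5.06 with shActb_1 and 4.70 and 4.64 with shActb_2. No treated array reached the level of its controls. The log2 differences were -0.84, -0.93, -0.45 and -0.94 in the arrays labelled Srf, with Mkl1, with shActb_1 and with shActb_2 (SE 0.086 or 0.087, adjusted p from 3.25e-04 to 0.0183). The fold of 2 was passed with Mkl1 under quantile normalization (-1.01) and without Mkl1 replicate 1 (-1.02), and with shActb_2 under quantile normalization (-1.13).

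Col5a3, a minor chain of type V collagen, rose in each comparison. Its levels were -2.20 and -1.57 with EGFP, 0.32 and 0.083 in the arrays labelled Srf and 0.70 and 0.52 with Mkl1. This corresponded to increases of 2.08 ± 0.19 and 2.50 ± 0.19 on the log2 scale (SE, adjusted p = 2.69e-04 and 3.41e-04). On the knockdown side its levels were -2.06 and -2.15 with shEGFP, -0.44 and -0.43 with shActb_1 and -0.77 and -0.84 with shActb_2, increases of 1.67 ± 0.19 and 1.30 ± 0.19 (adjusted p = 0.00215 and 0.00167). The treated arrays did not overlap with their controls in any of the 4 comparisons. The Mkl1 call was lost only where the EGFP and Mkl1 arrays were fitted alone.

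The major type V chain Col5a1, which starts the assembly of type I fibrils, was under 2-fold different in each comparison. Its log2 difference was 0.41 in the arrays labelled Srf (adjusted p = 0.0273), -0.23 with Mkl1, -0.12 with shActb_1 and -0.36 with shActb_2 (adjusted p = 0.0304). Col5a2, the other usual partner, was above background on only 2 of 12 arrays and was not tested.

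Col11a1, a type XI chain that sets the diameter of cartilage fibrils, had the largest decreases of any collagen with Mkl1 and with both hairpins. Its levels were -0.13 and -0.33 with EGFP, -0.92 and -0.97 in the arrays labelled Srf and -2.74 and -3.00 with Mkl1. With Mkl1 it fell by 2.64 ± 0.14 (SE), a 6.23-fold decrease (adjusted p = 8.09e-05), while in the arrays labelled Srf the difference was -0.71 ± 0.14 (adjusted p = 0.00942), under 2-fold. On the knockdown side it stood at -0.15 and 0.037 with shEGFP, -2.39 and -2.66 with shActb_1 and -3.38 and -3.60 with shActb_2. It fell by 2.47 ± 0.14 and by 3.43 ± 0.14 with hairpins 1 and 2 (adjusted p = 1.47e-04 and 2.34e-05). The Mkl1, shActb_1 and shActb_2 arrays lay below all others, and these 3 calls held in every alternative run, with values from -2.77 to -2.15, -2.60 to -2.14 and -3.54 to -2.76, the values nearest to 0 being those with normexp.

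Col2a1, the type II chain of cartilage with which type XI forms fibrils, fell with Mkl1 by 1.31 ± 0.15 and with shActb_1 by 1.46 ± 0.15 (adjusted p = 0.00174 and 0.00163). Its levels were -3.15 and -2.85 with EGFP, -4.48 and -4.14 with Mkl1, -3.54 and -3.49 with shEGFP and -4.89 and -5.06 with shActb_1. In the arrays labelled Srf it was at -3.14 and -3.41 and with shActb_2 at -3.74 and -3.64, and the differences of -0.28 and -0.18 had adjusted p of 0.230 and 0.390. With normexp background correction the Col2a1 decreases were no longer called with Mkl1 or shActb_1, and normexp gave the value nearest to 0 among the alternatives, -0.61 and -0.72. The Mkl1 decrease was also not called where the EGFP and Mkl1 arrays were fitted alone.

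Col11a2, the partner of Col11a1 in type XI, was called lower with shActb_2 alone, by 1.01 ± 0.33 (adjusted p = 0.0424), and 1 of the 2 shActb_2 arrays was below background. That call was lost in 8 of 12 alternatives, over which the value ran from -1.57 to -0.44. Col24a1, a fibrillar chain found with type I collagen, was called lower with Mkl1, by 1.01 ± 0.26 (adjusted p = 0.0319). Both Mkl1 arrays were below background, so the bright EGFP signal was at least 1.99-fold higher on the scale of the processed signal (1.22-fold with normexp), and the call was lost in 9 of 13 alternatives. Col27a1, above background on both arrays labelled Srf, differed from EGFP by 0.80 ± 0.91 (adjusted p = 0.549).

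Markers of cartilage were uneven beside these genes. Sox9, the transcription factor that drives Col2a1 and Col11a2 in cartilage, rose by 1.04 with Mkl1 and by 1.02 with shActb_2 and was 0.82 and 0.32 higher in the arrays labelled Srf and with shActb_1. Comp, a cartilage matrix protein, fell by 1.85 with Mkl1, by 2.38 with shActb_1 and by 1.59 with shActb_2, and Acan, the major cartilage proteoglycan, differed by -0.37 to 0.28 and changed in none. The part of a change in cell makeup in the collagen results was not tested, and in bulk RNA fewer cells of a type and less RNA per cell cannot be told apart.

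**Figure D2:**
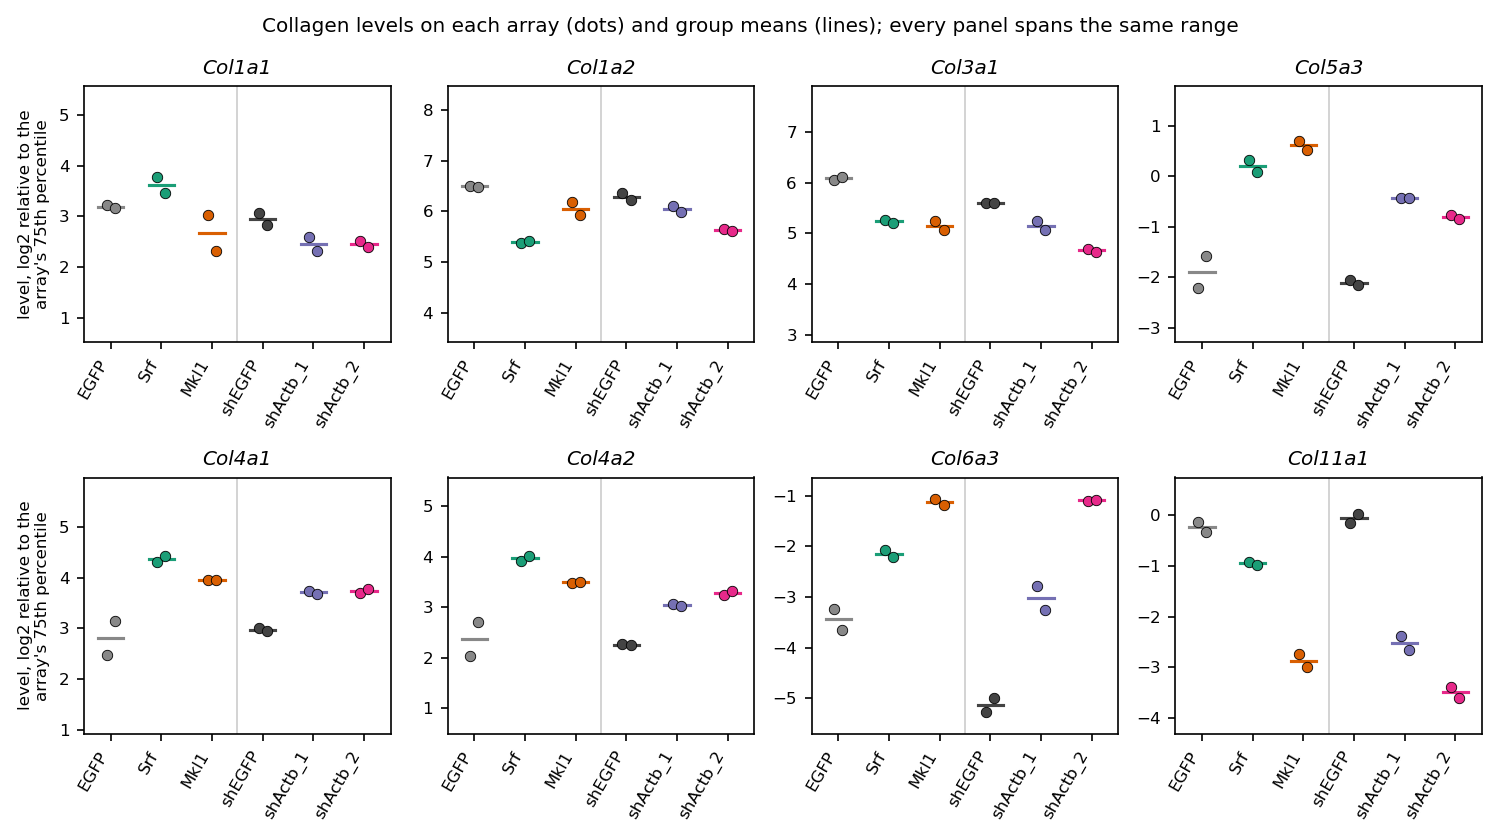
Level of 8 collagen genes on each of the 12 arrays (dots) with the group mean (lines), as log2 signal relative to the array's 75th percentile. The vertical range is equal in all panels, and the position of a panel on its own axis is not comparable between genes. The Col11a1 dots of Mkl1 and both hairpins lie at -2.39 or lower, below all other groups, and the Col5a3 and Col6a3 dots of each treatment lie above those of its control.

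Type IV collagen of most basement membranes contains 2 chains of Col4a1 and 1 of Col4a2, whose shared promoter is shown above. Col4a1 was at 2.47 and 3.15 with EGFP, 4.31 and 4.43 in the arrays labelled Srf and 3.96 on both Mkl1 arrays. Col4a2 was at 2.04 and 2.70 with EGFP, 3.92 and 4.02 in the arrays labelled Srf and 3.48 and 3.50 with Mkl1. All treated arrays stood above both EGFP arrays for both genes, and the lower EGFP array was the same one for each gene.

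Both chains rose by nearly equal amounts. In the arrays labelled Srf the increases were 1.56 ± 0.19 for Col4a1 and 1.60 ± 0.18 for Col4a2 (adjusted p = 0.00100 and 7.72e-04). With Mkl1 they were 1.15 ± 0.19 and 1.12 ± 0.18 (adjusted p = 0.00606 and 0.00586). Without EGFP replicate 1, the lower array, the Mkl1 values were 0.81 and 0.79 and neither was called. Neither Mkl1 call held when the fit used slide 1 alone or the compared groups alone, and the calls in the arrays labelled Srf were lost only in the fit of the compared groups alone.

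With the Actb hairpins the pair was also higher than shEGFP. Col4a1 was at 3.00 and 2.95 with shEGFP, 3.74 and 3.68 with shActb_1 and 3.70 and 3.78 with shActb_2, differences of 0.74 ± 0.19 (adjusted p = 0.0516) and 0.77 ± 0.19 (adjusted p = 0.0147). Col4a2 was at 2.27 and 2.25 with shEGFP, 3.07 and 3.03 with shActb_1 and 3.25 and 3.32 with shActb_2. It rose with shActb_2 by 1.03 ± 0.18 (adjusted p = 0.00388), a value just past the fold of 2 that was 0.99 without shActb_2 replicate 2 and 0.89 with quantile normalization, and the difference with shActb_1 was 0.79 ± 0.18 (adjusted p = 0.0362).

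The other type IV pair on the X chromosome, Col4a5 and Col4a6, which is also read head to head, from starts 1343 bases apart, went the other way. Col4a5 was 0.84, 0.85, 0.57 and 0.48 lower in the arrays labelled Srf, with Mkl1, with shActb_1 and with shActb_2, each with an adjusted p under 0.05 (from 7.02e-04 to 0.00977) and a fold under 2. The brighter Col4a6 probe fell with Mkl1 by 1.09 ± 0.13 (adjusted p = 0.00157) and had differences of -0.75, -0.78 and -0.59 in the other 3 comparisons (adjusted p = 0.00456 to 0.00931). The second Col4a6 probe gave -0.0025 with Mkl1 (adjusted p = 0.992), so the 2 probes disagreed there. The call was lost without EGFP replicate 1 (-0.96), without Mkl1 replicate 2 (-0.92) and in the fit of the compared groups alone.

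Of the kidney and lung type IV chains, Col4a3 was below background on all arrays. Its partner Col4a4 had 3 probes, of which 1 was called lower with shActb_2, by 1.66 ± 0.40 (adjusted p = 0.0133), from -3.71 and -4.11 with shEGFP to -4.89 and -6.25, with 1 of the 2 shActb_2 arrays above background. The brighter probe differed by -0.89 ± 0.18 there (adjusted p = 0.00645), and the third was not tested. The call was lost in 4 of 12 alternatives, among them without shEGFP replicate 1 (-1.46), without shActb_2 replicate 2 (-0.98) and with normexp (-0.63).

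**Figure D3:**
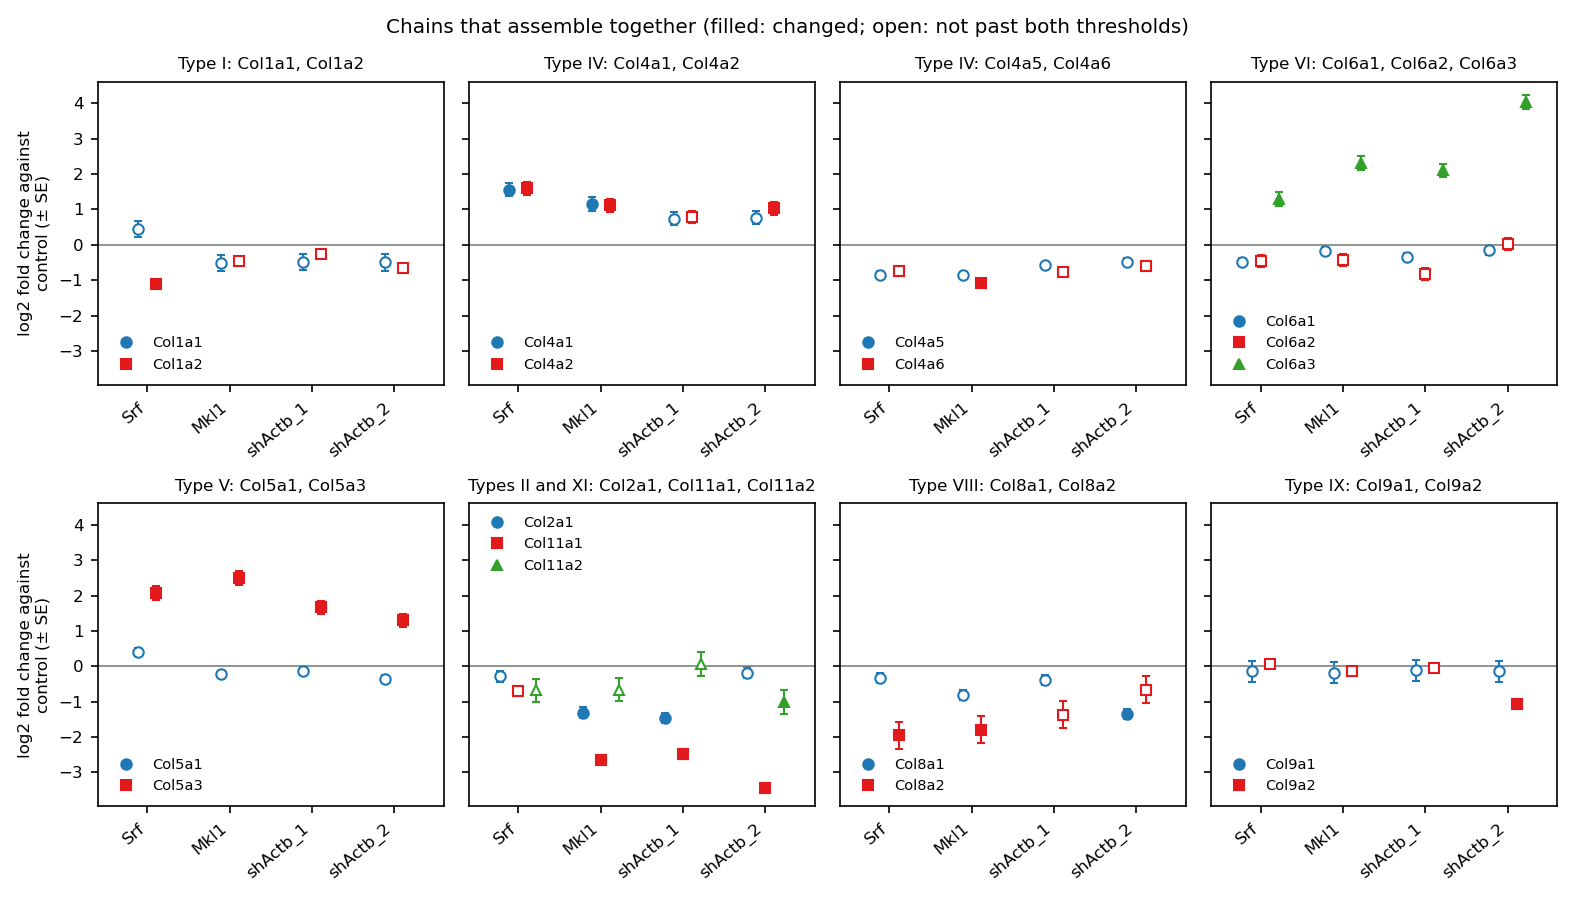
Log2 fold change against control (± SE, n = 2 arrays per group) of chains that assemble with each other, for the brightest probe of each gene, with filled symbols for changed probes. Col4a1 and Col4a2 lie close together in all 4 comparisons, whereas Col6a3 lies above Col6a1 and Col6a2 and Col5a3 above Col5a1 in each.

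Type VI collagen consists of Col6a1, Col6a2 and a longer chain, usually Col6a3, and sits around cells at the border of the basement membrane. Col6a3 rose in every comparison with a control. Its levels were -3.23 and -3.65 with EGFP, -2.08 and -2.20 in the arrays labelled Srf and -1.06 and -1.18 with Mkl1, increases of 1.30 ± 0.19 and 2.32 ± 0.19 (SE, adjusted p = 0.00257 and 4.83e-04). On the knockdown side they were -5.28 and -4.99 with shEGFP, -2.78 and -3.26 with shActb_1 and -1.10 and -1.08 with shActb_2.

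The hairpin increases of Col6a3 were 2.11 ± 0.19 and 4.04 ± 0.19 (adjusted p = 9.34e-04 and 3.56e-05). The second, 16.5-fold, was the largest fitted collagen increase in the knockdown comparisons, and 1 of the 2 shEGFP arrays was not well above background. With normexp background correction Col6a3 was no longer called in the arrays labelled Srf or with shActb_1, where its values were 0.84 and 0.95, and the Mkl1 and shActb_2 increases, still called, were 1.59 and 2.43. With the EGFP and Mkl1 arrays fitted alone the Mkl1 increase was not called.

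The 2 partner chains did not rise with it. Col6a1 differed by -0.48, -0.17, -0.34 and -0.16 in the arrays labelled Srf, with Mkl1, with shActb_1 and with shActb_2, and only the first had an adjusted p under 0.05 (0.0214). Col6a2 differed by -0.47, -0.43, -0.82 and 0.035, with an adjusted p of 0.0254 for shActb_1. Of the alternatives to that longer chain, Col6a4 and Col6a6 were tested where they reached background and had no adjusted p under 0.171, and Col6a5 was not tested.

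Type VIII collagen forms a hexagonal network in endothelial and corneal membranes from Col8a1 and Col8a2. The brighter Col8a2 probe fell in the arrays labelled Srf and with Mkl1, by 1.95 ± 0.38 and 1.79 ± 0.38 (adjusted p = 0.00846 and 0.0156). Its levels were -1.91 and -2.01 with EGFP, -3.54 and -4.28 in the arrays labelled Srf and -3.58 and -3.92 with Mkl1, and -2.88 and -2.98 with shEGFP, -3.76 and -4.85 with shActb_1 and -3.34 and -3.83 with shActb_2. Every treated array was below its controls, but the hairpin differences of -1.37 and -0.66 had adjusted p of 0.0652 and 0.201. Without Srf replicate 2 the decrease in the arrays labelled Srf was -1.58 and not called, and with Mkl1 it was -1.74 without EGFP replicate 1 and -1.62 without Mkl1 replicate 2, neither called. The Mkl1 call was also lost in the fit of the compared groups alone (adjusted p = 0.0568), and with normexp the decreases were -1.23 and -1.17, both called. The second Col8a2 probe was above background on the 6 knockdown arrays alone, with differences of -0.092 for shActb_1 and 0.32 for shActb_2 (adjusted p = 0.963 and 0.662).

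Col8a1 fell with shActb_2, by 1.35 ± 0.14 (adjusted p = 5.01e-04), from 1.46 and 1.55 with shEGFP to 0.23 and 0.079. It was at 1.13 and 1.11 with shActb_1, 1.54 and 1.07 with EGFP, 1.02 and 0.95 in the arrays labelled Srf and 0.47 and 0.54 with Mkl1, where the difference was -0.80 (adjusted p = 0.00805). Col10a1, the third member of the class, was below background on all arrays.

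Col7a1, which forms the anchoring fibrils that tie basement membrane to the tissue beneath, was higher than control in each comparison with an adjusted p under 0.05, by 0.34, 0.57, 0.95 and 0.46, all under 2-fold. It was at 3.81 and 3.79 with shEGFP and at 4.69 and 4.81 with shActb_1, where its difference was largest. The multiplexin Col18a1, a basement membrane collagen whose end fragment is endostatin, gave 0.75, 0.22, 0.59 and 0.53 with its brighter probe, all with an adjusted p under 0.05. The second probe gave 0.087 in the arrays labelled Srf (adjusted p = 0.333) and 0.25, 0.67 and 0.50 in the other comparisons (adjusted p = 9.43e-04 to 0.0277). Col15a1, the other multiplexin, differed by -0.87 with shActb_2 (adjusted p = 0.0592) and by -0.38 to -0.084 in the other comparisons.

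FACIT collagens lie on the surface of fibrils and do not form fibrils themselves. Col22a1, found at tissue junctions such as those of muscle and tendon, rose in the arrays labelled Srf by 1.78 ± 0.14 (adjusted p = 1.57e-04), from -3.26 and -3.00 with EGFP to -1.33 and -1.37. It was at -2.90 and -2.92 with Mkl1, -3.21 and -3.43 with shEGFP, -3.72 and -3.38 with shActb_1 and -2.51 and -2.68 with shActb_2, where the difference was 0.73 (adjusted p = 0.00562).

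The 2 probes of Col14a1, a regulator of fibril growth, disagreed. One, A_55_P2124736, was below background on 10 arrays and above on both arrays labelled Srf, at -2.77 and -2.97 against -6.56 and -7.19 with EGFP, so the level was at least 4.47-fold higher on the scale of the processed signal (adjusted p = 4.62e-05). With normexp background correction the difference was still called and was 2.15-fold, under that bound. The other, brighter probe differed by -0.38 ± 0.26 in the same comparison (adjusted p = 0.326), from -2.72 and -3.02 to -3.12 and -3.39. The files do not give the part of the transcript that each probe covers.

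Col16a1, a FACIT chain of fibrillin microfibrils and fibrils, had 3 probes above background on all arrays, and 1 fell in the arrays labelled Srf by 1.47 ± 0.11 (adjusted p = 1.43e-04), from 2.72 and 2.33 to 1.08 and 1.03. The brightest probe differed by -0.84 ± 0.12 (adjusted p = 0.00238), from 5.22 and 5.64 to 4.54 and 4.63, and the third by -0.52 ± 0.15 (adjusted p = 0.0432). All 3 were lower with an adjusted p under 0.05, and 1 passed the fold of 2. Col9a2, a type IX chain of cartilage and eye, fell with shActb_2 by 1.07 ± 0.10 (adjusted p = 3.20e-04), while its partner Col9a1 differed by -0.14 ± 0.30 (adjusted p = 0.748) and Col9a3 was above background on 1 of 12 arrays. The levels of Col9a2 were -1.84 and -2.03 with shEGFP, -1.98 and -1.99 with shActb_1 and -2.93 and -3.09 with shActb_2. They were -2.92 and -2.84 with EGFP, -2.73 and -2.87 in the arrays labelled Srf and -2.95 and -3.10 with Mkl1. The Col9a2 call was lost without shEGFP replicate 1 (-0.98), without shActb_2 replicate 2 (-0.99), with quantile normalization (-0.92) and with normexp (-0.74). Col12a1, which binds type I fibrils, gave 0.58 in the arrays labelled Srf, -0.42 with Mkl1, -0.63 with shActb_1 and -0.90 with shActb_2 (adjusted p = 0.00129 to 0.0467), all under 2-fold. Col20a1, a FACIT chain, had 2 tested probes and no adjusted p under 0.0612 in the comparisons with a control. Col19a1 was below background on all arrays.

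Among transmembrane collagens, 1 of 3 Col23a1 probes was called lower with Mkl1, by 1.16 ± 0.22 (adjusted p = 0.0105). Both Mkl1 arrays were below background, so the EGFP level was at least 1.52-fold higher on the processed-signal scale (1.25-fold with normexp), and the brightest probe differed by -0.10 ± 0.25 (adjusted p = 0.789). The remaining Col23a1 probe was at -4.62 and -3.79 with EGFP and lower, at -5.61 and -4.76, with Mkl1, and was not called. The call was lost in 5 of 12 alternatives. Col25a1, first found in amyloid plaques and expressed by neurons, changed against no control, with differences of -0.97 ± 0.25 for shActb_2 (adjusted p = 0.0167) and 0.15 for shActb_1 with its brighter probe. Col26a1 was above background on both arrays labelled Srf and neither EGFP array, at least 1.67-fold higher on the processed-signal scale, with an adjusted p of 0.0648. Of the 3 remaining chains of these classes, Col13a1 was above background on 2 arrays and Col17a1 and Col28a1 on none.

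The treatments were also set against each other. Between the arrays labelled Srf and the Mkl1 arrays, which stood on the same slide, 6 of 41 collagen probes were higher in the former (3.26% of all probes) and 1 was lower (1.74% of all). Col11a1 was higher by 1.93 ± 0.14 (adjusted p = 9.21e-05), Col22a1 by 1.56 ± 0.14 and Col2a1 by 1.03 ± 0.15 (adjusted p = 2.43e-04 and 0.00250). The Col14a1 probe that was dim elsewhere was at least 5.86-fold higher on the scale of the processed signal (adjusted p = 1.97e-05) and 2.77-fold higher with normexp, the second Col4a4 probe was higher by 1.65 ± 0.40 (adjusted p = 0.0202), and Col12a1 by 1.01 ± 0.12 (adjusted p = 9.39e-04). Col6a3 was lower by 1.02 ± 0.19 (adjusted p = 0.00710), and by 0.96 and not called without Mkl1 replicate 1 or without Srf replicate 2. The Col12a1 difference was 0.80 without Mkl1 replicate 2 and 0.96 without Srf replicate 1, that of Col2a1 was 0.86 without Mkl1 replicate 1 and 0.90 without Srf replicate 1, and none of these was called. The Col4a4 call was lost without any single array of the 2 groups, at 1.56 to 1.73. With normexp the Col4a4, Col2a1, Col12a1 and Col6a3 differences were 0.63, 0.50, 0.88 and -0.75, and none of these was called. Col4a1, Col4a2 and Col5a3 differed between these treatments by 0.41, 0.48 and -0.41, with adjusted p of 0.158, 0.0957 and 0.157.

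The 2 Actb hairpins differed from each other in 5 of 38 collagen probes, 2 higher with shActb_2 (1.79% of all probes) and 3 lower (3.24% of all). Col6a3 was higher with shActb_2 by 1.93 ± 0.19 and Col2a1 by 1.29 ± 0.15 (adjusted p = 6.78e-04 and 0.00128), the latter 0.51 and not called with normexp. Col25a1, Col11a2 and Col9a2 were lower by 1.12 ± 0.24, 1.08 ± 0.33 and 1.02 ± 0.10 (adjusted p = 0.0122, 0.0401 and 6.32e-04). Without shActb_2 replicate 2 these 3 values were -0.79, -0.52 and -0.94 and none was called. Col11a1 and Col8a1 were each lower with shActb_2 by 0.97 ± 0.14, just under 2-fold (adjusted p = 0.00264 and 0.00270). The hairpins were on different slides, so hairpin and slide cannot be told apart in these differences.

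The Mkl1 effect was compared with the mean effect of both hairpins by an interaction contrast, each effect taken against its own control. None of 43 collagen probes changed in limma, against 0.554% of all probes higher and 0.331% lower, and 10 had an unadjusted p under 0.05, as did 19.8% of all 38970 probes. With a variance trend and robust estimation 1 probe changed. The contrast was 1.01 ± 0.25 for Col5a3 (adjusted p = 0.0847), -0.76 ± 0.26 for Col6a3 (adjusted p = 0.167), 0.31 ± 0.19 for Col11a1 (adjusted p = 0.415) and 0.40 ± 0.25 for Col4a1 (adjusted p = 0.432). The values of Col5a3 and Col4a1 moved most with the EGFP arrays. Without EGFP replicate 1 the contrast was 0.69 for Col5a3 and 0.056 for Col4a1 (adjusted p = 0.065 and 0.805), and without EGFP replicate 2 it was 1.32 and 0.74 (adjusted p = 0.00895 and 0.0114), with Col5a3 called. Over all alternatives Col5a3 was called in 3 of 20, Col6a3 ran from -0.97 to -0.10 and Col11a1 from 0.18 to 0.44, neither called.

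**Figure D4:**
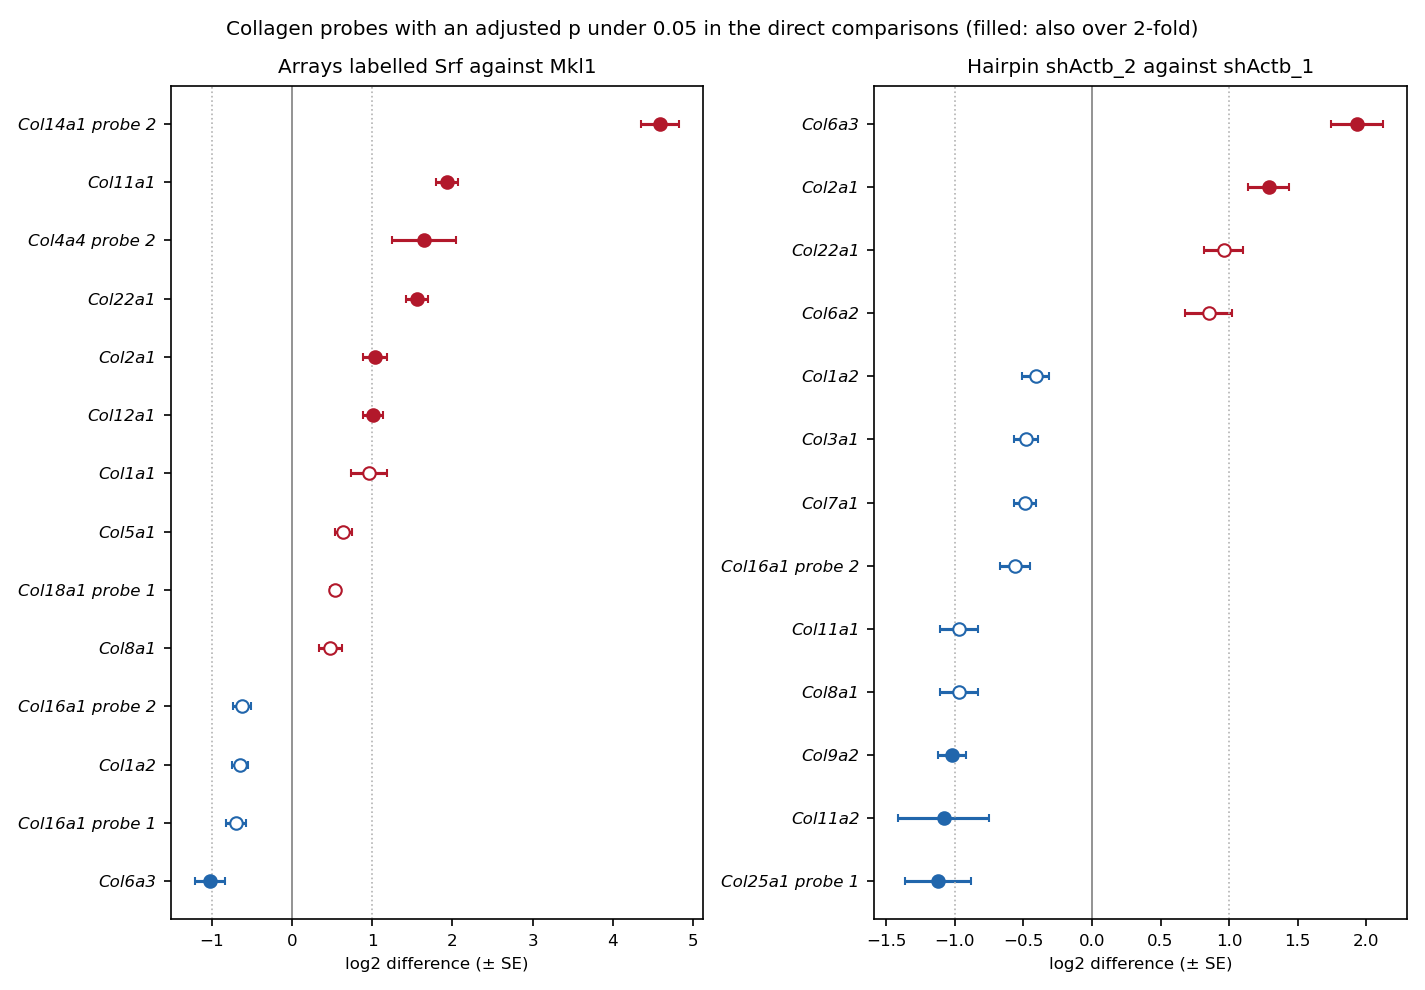
Log2 difference (± SE, n = 2 arrays per group) of the collagen probes with an adjusted p under 0.05 in the direct comparisons of the arrays labelled Srf with Mkl1 (left) and of shActb_2 with shActb_1 (right), with filled points for those also over 2-fold and dotted lines at 2-fold. Points to the right are higher in the first-named group. Col14a1 probe 2 and Col11a1 are farthest to the right on the left side, and Col6a3 and Col2a1 on the right side. Col14a1 probe 2 was below background on both Mkl1 arrays, so its fitted point is not an exact size. With normexp it was 1.47, against 1.52 for Col11a1.

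Genes that make, trim and cross-link collagen were followed as lists. Of 23 tested probes for prolyl and lysyl hydroxylases, chaperones and other folding genes, none changed in the arrays labelled Srf, with Mkl1 or with shActb_1. Over all probes 3.29% rose and 2.25% fell, 1.29% and 1.49%, and 0.486% and 1.12% in these 3 comparisons, shares that leave such counts uninformative. Of the same probes 1 fell with shActb_2, where 4.58% of all probes did. That was 1 of 2 probes for the prolyl hydroxylase P4ha3, lower by 1.33 ± 0.15 (adjusted p = 6.48e-04), and the other differed by -0.17 (adjusted p = 0.384). Serpinh1, the collagen-specific chaperone Hsp47, differed by -0.39 to 0.066. The median log2 fold change of this list was 0.0068, 0.15, 0.019 and 0.24 in the 4 comparisons.

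Lysyl oxidase, Lox, the enzyme that starts the cross-linking of collagen and elastin, fell in every comparison with both of its probes. The brighter one had log2 fold changes of -2.03, -2.04, -3.62 and -2.92 in the arrays labelled Srf, with Mkl1, with shActb_1 and with shActb_2 (SE 0.21, adjusted p from 1.28e-04 to 0.00102). The second probe gave -2.10, -1.72, -3.80 and -2.42. Of 10 tested probes for the 5 crosslinking genes these 2 were the ones called, where 2.25%, 1.49%, 1.12% and 4.58% of all probes fell, and the list had medians of -0.42, -0.026, -0.043 and -0.23. Of the procollagen processing genes, Pcolce2, an enhancer of the C-terminal proteinase, rose with Mkl1 by 1.07, Adamts2, the N-terminal proteinase, rose with shActb_2 by 1.08 at 1 probe, the other giving 0.27 (adjusted p = 0.834), and 1 of 2 probes of the proteinase Tll1 fell with Mkl1, shActb_1 and shActb_2.

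Of 10 tested probes (8 genes) for partners of collagen fibrils, 1 rose and 1 fell in the arrays labelled Srf, where 3.29% and 2.25% of all probes did. Of 9 probes (7 genes) tested with Mkl1 and with each hairpin, 2 fell and none rose, where 1.49%, 1.12% and 4.58% of all probes fell with Mkl1, shActb_1 and shActb_2. Ogn (osteoglycin) fell in all 4 comparisons, with log2 fold changes of -2.40, -1.38, -1.83 and -2.77 (adjusted p from 4.97e-05 to 0.00111). Dcn (decorin) fell with Mkl1, shActb_1 and shActb_2, with log2 fold changes of -1.79, -1.96 and -1.55, and was 0.85 higher in the arrays labelled Srf (adjusted p = 1.11e-04), under 2-fold. Lum (lumican) was above background on both arrays labelled Srf and neither EGFP array, so it was tested there through the former alone. It was at least 11.8-fold higher on the scale of the processed signal (adjusted p = 7.58e-05). Dcn and Lum are also in the list of fibroblast and mesenchymal markers, of which Thy1 rose in all 4 comparisons by 1.49 to 3.09, Twist2 rose in the arrays labelled Srf by 1.17, and Pdgfrb fell by 1.69 to 1.87 with Mkl1 and both hairpins. Prrx1 fell with Mkl1 at both of its probes and with shActb_2 at 1.

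Over the fibroblast and mesenchymal markers, 3 of 11 tested probes (9 genes) were called higher and none lower in the arrays labelled Srf (3.29% and 2.25% of all probes). Of 10 probes (8 genes) tested in each of the other comparisons, 1 was higher and 4 lower with Mkl1 (1.29% and 1.49% of all), 1 and 2 with shActb_1 (0.486% and 1.12%) and 1 and 3 with shActb_2 (1.73% and 4.58%). The medians of the list were 0.21, -0.42, -0.52 and -0.37. Summed over 1 probe per gene, the linear signal of the fibroblast and mesenchymal markers was 272 to 310 times the 75th percentile with EGFP, 281 to 310 in the arrays labelled Srf and 270 to 292 with Mkl1, and 198 to 205 with shEGFP, 171 to 201 with shActb_1 and 207 to 217 with shActb_2. Such a sum weights each gene by the brightness of its probe and does not compare the genes.

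Of the neural progenitor markers, Slc1a3, a glutamate transporter of radial glia, fell with Mkl1, shActb_1 and shActb_2, with log2 fold changes of -1.37, -1.30 and -1.11. Sox2, a transcription factor of neural stem cells, fell in the arrays labelled Srf and with shActb_1, with values of -1.05 and -1.01, and Fabp7, a fatty acid binding protein of radial glia, fell with shActb_1 by 1.27. Nes, an intermediate filament protein, rose with Mkl1 by 1.16. With shActb_2 1 of 2 Pax6 probes, above background on 2 arrays, rose by a fitted 2.07, at least 1.35-fold, and the other differed by 0.57. The list had medians of 0.068, -0.11, -0.31 and -0.10 in the 4 comparisons. The summed neural progenitor markers were 280 to 297, 259 to 267 and 323 to 336 in EGFP, the arrays labelled Srf and Mkl1, and 253 to 257, 274 to 277 and 365 to 367 in shEGFP, shActb_1 and shActb_2.

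Of the neuron and astrocyte markers, both probes of Map2, a microtubule protein of neurons, fell with Mkl1 and with each hairpin, with values from -1.55 to -1.03, and Tubb3, a neuronal tubulin, rose in the arrays labelled Srf by 1.53. No other gene of the list changed, and its medians were -0.34, -0.33, -0.98 and -0.86. Its summed signal was 5.11 to 5.62 with EGFP, 7.02 to 7.33 in the arrays labelled Srf and 3.25 to 3.70 with Mkl1, and 6.15 to 6.17 with shEGFP, 3.32 to 3.55 with shActb_1 and 3.73 to 3.98 with shActb_2. Of the embryonic stem cell markers, Esrrb, a pluripotency factor, rose in the arrays labelled Srf by 2.53, and 1 of 3 probes of the pluripotency factor Nanog fell with shActb_2 by 1.12. The sum of that list was 1.77 to 2.75 with EGFP, 4.04 to 4.49 in the arrays labelled Srf and 1.47 to 1.82 in the other groups. The part of these marker levels in the collagen differences was not tested.

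Of the collagen receptors, the integrin subunit Itga1 rose in the arrays labelled Srf by 1.52 and with Mkl1 by 1.06 with its brighter probe, the other giving 0.0035 and -0.24, and the receptor tyrosine kinase Ddr1 fell in the arrays labelled Srf by 1.01. With the hairpins 0 of 11 and 0 of 12 receptor probes were called, a count that shares of 0.486% higher and 1.12% lower with shActb_1 and 1.73% and 4.58% with shActb_2 over all probes leave uninformative. Of the genes for breakdown, the gelatinase Mmp9 rose with both hairpins, by 1.58 and 1.67. Fap, a collagen-cleaving surface protease of fibroblasts, rose in the arrays labelled Srf by 1.61 and fell with Mkl1 and with shActb_1, with log2 fold changes of -2.21 and -1.69. In the arrays labelled Srf the collagenase Mmp13 fell by 1.11 and the inhibitor Timp3 by 1.78. The membrane-bound Mmp15 was at least 1.89-fold higher there on the scale of the processed signal, and Timp4 fell with shActb_2 by 1.08.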

How the data were processed

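RNA of 12 neural progenitor samples was hybridised by the authors to 1-colour Agilent mouse arrays and read with Agilent Feature Extraction 11.5.1.1. The deposited scanner files hold a processed signal intensity per spot, already background-corrected, and the flags for spots above background. The methods name a percentile shift and the exclusion of low signals, and no test for the arrays. The authors' deposited value table holds log2 values that lay within 0.01 of the log2 processed intensity minus a constant per array for 100.0% of probes. It served as an alternative.

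Here control spots and flagged outlier spots were left out and spots of a probe were averaged. Log2 of the processed signal minus the 75th percentile of each array was fitted in limma 3.58.1 (R 4.3.3) with lmFit and eBayes over all 12 arrays as 6 group means. Tested probes were well above background on both arrays of at least 1 compared group. P-values were two-sided. Probes were named through their accessions in a RefSeq table of GRCm38.p6, which named 28026 of 55681 probes (50.3%). One collagen value, that of a Col9a1 probe on EGFP replicate 1, was missing because its spot was flagged. A fold is given as a lower bound where a probe was not well above background on either array of the dimmer group. It sets the bright mean against, per array, the higher of the dim signal and the lowest signal among probes well above background. The bound holds on the scale of the processed signal alone, and for 1 Col14a1 probe normexp gave 2.15-fold, under its bound.

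The genes described were every collagen gene changed in at least 1 of the 4 comparisons with a control, beside their chain partners and the changed members of the other lists. Values on every array are given for Col1a1, Col1a2, Col3a1, Col4a1, Col4a2 and Col11a1. They are also given for the 3 largest increases and 3 largest decreases of each comparison, ranked by the brightest probe of each changed gene. The other genes in the text were added after their values were seen. The members and lists were chosen with earlier results of these data known. Alternatives were normexp background correction (offset 50, on the median signal), quantile normalization, the deposited table, 3 other filters on dim probes, other samples in the fit, a replicate block, another variance model, other thresholds, 1 probe per gene and leaving out each array. Tested on simulated data with 200 probes changed by 2 on the log2 scale, the fit recovered 83% of them in the comparison of the arrays labelled Srf with EGFP (35552 probes). The number of arrays limits the precision.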

Additional observations from a re-analysis of the deposited data

Results flagged for a closer look

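Both hairpins target Actb and were measured against the same shEGFP arrays, and 5 collagen genes differed between them by a direct limma test. Of 38 collagen probes tested, 2 were higher with shActb_2 (1.79% of all probes) and 3 lower (3.24% of all). On the log2 scale, shActb_2 minus shActb_1, the difference was 1.93 for Col6a3, 1.29 for Col2a1, -1.12 for Col25a1, -1.08 for Col11a2 and -1.02 for Col9a2 (adjusted p = 6.78e-04, 0.00128, 0.0122, 0.0401 and 6.32e-04). Col6a3 was higher than shEGFP with both hairpins, and Col2a1 fell with shActb_1 alone. Without shActb_2 replicate 2 the values for Col25a1, Col11a2 and Col9a2 were -0.79, -0.52 and -0.94 and not called. With normexp background correction Col6a3 alone was called (1.49), and the others were 0.51, -0.80, -0.45 and -0.74. The shActb_1 arrays shared slide 2 with shEGFP and the shActb_2 arrays were alone on slide 3, so for shActb_2 hairpin and slide cannot be told apart.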

How the results depend on the processing

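Over 81 named values and 1130 recomputations, 1015 kept their direction and side of the threshold, 88 lost the call, 9 gained it and 18 changed sign, and 43 values kept both in every alternative. By the adjusted p alone the changed collagen probes numbered 21, 19, 13 and 24 in the arrays labelled Srf, with Mkl1, with shActb_1 and with shActb_2, against 9, 10, 4 and 8. They were 14 of 41 for the arrays labelled Srf against Mkl1 and 13 of 38 for shActb_2 against shActb_1, against 7 and 5. Over all probes these 2 comparisons had 9151 of 35717 and 11371 of 35426 by the adjusted p alone. Normexp gave 2 with shActb_1, 5 with shActb_2, 3 for the arrays labelled Srf against Mkl1 and 1 for shActb_2 against shActb_1, and with it 4 rose and 3 fell with Mkl1 and 3 rose and 2 fell with shActb_2, against 4 and 6, and 3 and 5. Over all probes normexp also called fewer, 250, 677, 903 and 418 with shActb_1, with shActb_2, for the arrays labelled Srf against Mkl1 and between hairpins, against 582, 2283, 1787 and 1782. Fitting the compared groups alone gave 1 with Mkl1 and 3 between hairpins, slide 1 alone gave 6 with Mkl1, quantile normalization gave 3 between hairpins, all higher with shActb_2 against 2 higher and 3 lower, and probes above background on every array compared gave 5 with shActb_2. Leaving out 1 array gave 8 to 12, 7 to 12, 4 to 7, 4 to 12, 5 to 6 and 3 to 9 in these 6 comparisons in the same order. The highest count with shActb_1, 7, was without shActb_1 replicate 1. The lowest with shActb_2, 4, was without shActb_2 replicate 2, and between hairpins the counts were 3 and 9 without shActb_2 replicate 2 and 1. The interaction called 0, and 1 with probes above background on every array, with a variance trend and robust estimation, or without either EGFP array (0 to 1 over all left-out arrays), and 4 by fold alone.

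Signs turned only where the value was uncalled and near 0. For Col1a1 this was the difference between hairpins (-0.15 to 0.13 without 1 array, 0.052 without shActb_2 replicate 2) and the interaction (0.040 with normexp, -0.38 to 0.33 without 1 array). For Col1a2 it was the interaction (-0.033 with normexp, -0.13 to 0.13 without 1 array), for Col3a1 the arrays labelled Srf against Mkl1 (-0.0044 to 0.18 without 1 array, the lowest without Mkl1 replicate 2), for Col4a1 the hairpins (-0.029 with quantile normalization, -0.015 to 0.075 without 1 array) and for Col4a2 the interaction (-0.12 to 0.55 without 1 array, the lowest without EGFP replicate 1). The cause was not tested.

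Over all probes the share of calls that were higher was 46.4% with Mkl1, 27.5% with shActb_2 and 35.6% between hairpins, and 64.1%, 45.8% and 48.0% with quantile normalization. Leaving out 1 array also moved the number of calls over all probes in each comparison. Such fits have 1 array in a group, so the ranges of the collagen counts above do not tell whether collagens moved more than other probes. With no filter on dim probes the median of all probes was -0.14 in the arrays labelled Srf and -0.13 with Mkl1. Same-numbered arrays deviated together with correlations of -0.00235 to 0.261, which does not show that the numbers pair the arrays. With 2 arrays per group the 2 deviations from a group mean mirror each other, so the 2 pairs of a comparison carry the same information. With the replicate number as a block (replicate block) the counts were 9, 10, 5, 8, 7, 5 and 0 against 9, 10, 4, 8, 7, 5 and 0.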
